A study of Homo sapiens with 24 samples.

Results

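The insulin and insulin-like growth factor (IGF) axis was followed through 10 genes in HepG2, a line derived from a human liver cancer: the IGF-binding proteins IGFBP1, IGFBP2, IGFBP3, IGFBP4 and IGFBP6, the receptors INSR and IGF1R, the adaptors IRS1 and IRS2, and the transcription factor FOXO1. They are 10 of 34618 genes in the deposited table, found by symbol, and were chosen on measured values of these libraries, chiefly the high IGFBP1 level of METTL14 knockdown cells. For that reason their levels in shMETTL14 against shCtrl cells are described and not tested. All 3 lines carried a stable lentiviral hairpin after puromycin selection (1 ug/mL): shMETTL14 (hairpin against METTL14), shSETD2 (hairpin against SETD2) and shCtrl (non-specific hairpin). Each line was harvested untreated (0 h) and after 1, 3 and 6 h in 5 ug/mL actinomycin D, with 2 libraries per line and time, 24 in all. The labels name no second hairpin per target, so a line and its hairpin cannot be told apart. The replicates are called biological, but nothing in the sources used here says that they came from separate cultures, so p-values measure the spread between these libraries.

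As background, IGFs circulate and act bound to IGF-binding proteins, which hold the ligand away from IGF1R and so limit or prolong its action. In liver, insulin binding to INSR signals through the IRS adaptors and AKT, and AKT keeps FOXO1 out of the nucleus; IGFBP1 is a classic FOXO1 target that insulin represses. METTL14 is a subunit of the enzyme that writes N6-methyladenosine (m6A) on RNA, and SETD2 trimethylates histone H3 at lysine 36, a mark that METTL14 is known to bind. Actinomycin D stops transcription, so the change that follows reflects how fast an RNA is lost relative to the others.

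Library totals ran from 18.3 to 31.4 M counts. Levels are TMM-scaled CPM (counts relative to the library total times a TMM factor), or deposited RPKM where genes are compared with each other. RPKM divides by exon length and by the library total alone. The TMM factor fell from 1.19 at 0 h to 0.881 and 0.873 at 6 h in shMETTL14 cells. It fell from 1.03 to 0.845 and 0.838 in shSETD2 cells, and from 1.14 and 1.15 to 0.896 and 0.903 in shCtrl cells. Changes over time therefore come out higher in CPM than against the library total. Changes over time are straight-line slopes fitted to the 4 group means of a line, in log2 per h. Spike-ins are named in the protocol, but the table holds 0 spike-in entries, so every value is relative to the rest of the RNA. A positive slope is a smaller loss than the average transcript, not synthesis. Fewer cells or less RNA per cell cannot be told apart. Adjusted p-values are from edgeR's quasi-likelihood test with Benjamini-Hochberg adjustment over 14887 genes; a gene is called at 0.05. At 0 h METTL14 measured 15 and 13.9 CPM in shMETTL14 cells, against 29.3 and 30.03 CPM in shCtrl cells (log2 fold change -1.03, SE 0.0992, adjusted p = 1.26e-08). SETD2 measured 90.4 and 81.7 CPM in shSETD2 cells, against 130.5 and 129 CPM in shCtrl cells (-0.59, SE 0.0646, adjusted p = 1.20e-07). METTL14 was itself higher in shSETD2 than in shCtrl cells, at 38.0 and 38.6 CPM (0.37, SE 0.0923, adjusted p = 0.0026). SETD2 was not called in shMETTL14 cells (-0.05, SE 0.0635, adjusted p = 0.557). All 10 hepatocyte markers had counts in every line; at 0 h 8 were higher (23.1% of all genes) and 1 lower (25.1%) in shMETTL14 cells (median log2 fold change 0.24), and 10 of 10 were higher (21.6%) in shSETD2 cells (median 0.88). The fibroblast markers COL1A2, THY1 and DCN were at 0 in all 3 lines at 0 h; the summed fibroblast list held 28.6 to 30.9 CPM in shMETTL14 cells, 18.5 to 19.3 CPM in shSETD2 cells and 13.4 to 13.7 CPM in shCtrl cells. The blood markers PTPRC, CD3E and HBB were also at 0, and nearly all of that list's 2072 to 2131 CPM in shMETTL14 cells, 1370 to 1376 CPM in shSETD2 cells and 1046 to 1089 CPM in shCtrl cells was LYZ. KDR was at 0, and RELN made up nearly all of the endothelial and stellate list, at 1483 to 1517 CPM in shMETTL14 cells, 1369 CPM in each shSETD2 library and 2355 to 2381 CPM in shCtrl cells. The part of these differences in the results was not tested.

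IGFBP1 (ENSG00000146678; chromosome 7, 45927956 to 45933267, plus strand, GRCh37) encodes the binding protein that liver secretes when insulin is low. Before the drug the libraries held 190 and 196 CPM in shMETTL14 cells, 56.8 and 56.7 CPM in shSETD2 cells, and 49.6 and 49.9 CPM in shCtrl cells. The shMETTL14 libraries stood far above all others and did not overlap them at any time. The mean was 3.88-fold that of shCtrl at 0 h, 3.51-fold at 1 h, 3.96-fold at 3 h and 4.27-fold at 6 h. After 6 h of actinomycin D the libraries held 273 and 299 CPM in shMETTL14 cells, 54.3 and 52.9 CPM in shSETD2 cells, and 67.2 and 66.8 CPM in shCtrl cells. The 4 shMETTL14 groups thus took the top places of the 12 groups, followed by shCtrl at 6 h (67.0 CPM) and 3 h (65.2 CPM). The other 6 groups lay between 49.7 and 56.8 CPM; shSETD2 at 0 h was the highest of them, and the libraries of the rest partly overlapped.

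**Figure D1:**
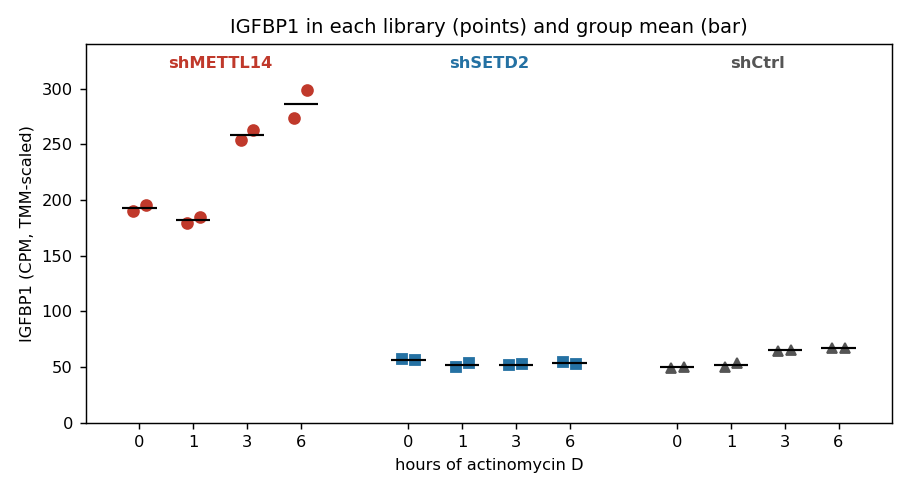
IGFBP1 level in TMM-scaled CPM (linear axis from 0) in each library, by line and hours of actinomycin D; bars are means of 2 libraries. All 8 shMETTL14 libraries lie at 179 CPM or more, and all shSETD2 and shCtrl libraries at 67.2 CPM or less.

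The coding sequence of IGFBP1 holds 2 copies of GGACT, the most common core of the m6A motif, and its untranslated regions hold 0. They are shown because the genes were chosen chiefly on the IGFBP1 level of METTL14 knockdown cells; the windows come from the GENCODE v29 transcript ENST00000275525.7 on GRCh38, plus strand, with GGACT in capitals and 12 bases on either side:
IGFBP1 coding base 241, chr7:45888881-45888909: cgctgcgcccggGGACTcagttgccgcgc
IGFBP1 coding base 676, chr7:45892975-45893003: gatggagaggcgGGACTctgctggtgcgt
The base number is the position of the G that opens the motif, counted from the A of the start codon. IGFBP1 thus carried 1.21 GGACT per kb of transcript, against a median of 0.938 per kb over 12608 tested genes with a protein-coding transcript (quartiles 0.576 and 1.40). Among the other members the density was highest in IGFBP4 at 1.82 per kb, followed by IGFBP6 at 1.70 and FOXO1 at 1.57 per kb. It was lowest in IGFBP3, with 1 copy and 0.415 per kb. Of these tested genes, 15.4% had a lower density per kb. A copy of the motif is a match of letters, not a measured m6A site.

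In shSETD2 cells IGFBP1 differed little from shCtrl in level, and its course under the drug differed. At 0 h it rose by 0.19 on the log2 scale (SE 0.0537, adjusted p = 0.00632), a call not made under library size scaling (0.03), DESeq2 (0.14) or limma on RPKM (0.03), nor without either 0 h library of shCtrl or of shMETTL14 (0.09 to 0.10, highest adjusted p = 0.322; 0.623 under the other settings). By 6 h it was lower than in shCtrl (-0.32 log2, SE 0.0561, adjusted p = 6.74e-05). Relative to its own 0 h mean, IGFBP1 stood at 94.3%, 134% and 148% after 1, 3 and 6 h in shMETTL14 cells. The same times gave 91.1%, 91.7% and 94.4% in shSETD2 cells, and 104%, 131% and 135% in shCtrl cells. On the TMM scale IGFBP1 thus ended above its starting level in shMETTL14 and shCtrl cells and slightly below it in shSETD2 cells. In deposited RPKM the means at 0 and 6 h were 139 and 152 in shMETTL14 cells and 35.3 and 27.3 in shSETD2 cells.

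As slopes, IGFBP1 rose by 0.111 log2 per h in shMETTL14 cells (SE 0.00748, adjusted p = 4.56e-12) and by 0.0764 in shCtrl cells (SE 0.00836, adjusted p = 2.20e-08). In shSETD2 cells the slope was -0.00708 (SE 0.00861, adjusted p = 0.477), which turned to 0.0099 with RLE factors and was called as a fall by library size alone (-0.0562). The slope in shSETD2 minus that in shCtrl was -0.0835 log2 per h (SE 0.0120, adjusted p = 0.000146). That call held in all 24 fits without 1 library and under all 8 other settings, at between -0.0864 and -0.0508 (highest adjusted p = 0.0437). The slope in shMETTL14 minus that in shCtrl was 0.0344 (SE 0.0113, adjusted p = 0.0856); it was called over 1, 3 and 6 h alone (0.0554), with RLE factors or DESeq2 (0.0403), with the stricter filter (0.0390) and in 7 of 24 fits without 1 library. Those were the 0 h libraries of shMETTL14 and shCtrl, the 6 h libraries of shSETD2 and shMETTL14 replicate 1 at 6 h. The 24 fits spanned 0.0226 to 0.0602. This difference is built from shMETTL14 and shCtrl levels, which took part in choosing the members, so its p-value is not free of that choice. On the deposited RPKM scale shCtrl held 34.5 RPKM at 0 h and 36.4 RPKM at 6 h. With scaling by library size alone the shCtrl slope was 0.0175 and not called by edgeR (adjusted p = 0.0633), and the shSETD2 slope was a called fall (-0.0562). The size of the shMETTL14 slope also depended on the setting. It ran from 0.0394 to 0.124 over the 8 other settings and was called under all of them.

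Among the other binding proteins, IGFBP2, IGFBP4 and IGFBP6 were higher in shMETTL14 cells than in shCtrl cells at every time, whereas IGFBP3 was close to shCtrl. In shSETD2 cells IGFBP3, IGFBP4 and IGFBP6 were lower than in shCtrl cells at every time, and IGFBP2 was called as lower at 0, 1 and 3 h. IGFBP2 (chromosome 2, 217497551 to 217529159, plus strand, GRCh37), which binds IGF2 with high affinity, was a low-count gene. It had 4.34 and 3.98 CPM in shMETTL14 cells, 0.779 and 0.742 CPM in shSETD2 cells and 1.07 and 1.48 CPM in shCtrl cells at 0 h. At 6 h it had 11.6 and 11.95 CPM in shMETTL14 cells, 1.55 and 2.09 CPM in shSETD2 cells and 2.18 and 2.84 CPM in shCtrl cells. The shMETTL14 mean was thus 3.26-fold that of shCtrl at 0 h and 4.69-fold at 6 h, without overlap of libraries. The fall in shSETD2 cells at 0 h (log2 fold change -0.75, SE 0.269, adjusted p = 0.0288) was lost without shSETD2 replicate 1 or 2 or shCtrl replicate 2 at 0 h (-1.05 to -0.57 over all 24 fits without 1 library, highest adjusted p = 0.221). IGFBP2 was also called as lower in shSETD2 cells at 1 h (-0.79, SE 0.238, adjusted p = 0.00988) and at 3 h (-1.31, SE 0.236, adjusted p = 8.91e-05). At 6 h the difference was -0.47 (adjusted p = 0.122). The shSETD2 and shCtrl libraries did not overlap at any time.

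IGFBP3 (chromosome 7, 45951949 to 45961473, minus strand, GRCh37) encodes the main carrier of IGFs in blood. At 0 h it had 1.75 and 1.76 CPM in shMETTL14 cells, 0.271 and 0.371 CPM in shSETD2 cells (8 and 9 counts) and 2.21 and 1.66 CPM in shCtrl cells. The shMETTL14 and shCtrl libraries overlapped, while the shSETD2 libraries lay below both. IGFBP3 fell in shSETD2 cells at 0 h (log2 fold change -2.58, SE 0.285, adjusted p = 1.33e-07) and at 6 h (-2.595, SE 0.238, adjusted p = 6.24e-09), and the calls held in every fit without 1 library. At 3 h the mean in shSETD2 cells was 0.297 CPM (6 and 7 counts), against 3.98 CPM in shCtrl cells, which is 13.4-fold lower. At 0, 1 and 6 h it was 6.03-fold, 7.33-fold and 5.94-fold lower. The size of these differences rests on few counts.

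IGFBP4 (chromosome 17, 38599702 to 38613983, plus strand, GRCh37), a binding protein known to inhibit IGF action, was the most abundant member of the family beside IGFBP1. At 0 h the libraries held 99.3 and 98.4 CPM in shMETTL14 cells, 40.1 and 40.3 CPM in shSETD2 cells and 70.05 and 66.2 CPM in shCtrl cells. At 6 h they held 253 and 233 CPM in shMETTL14 cells, 88.5 and 68.8 CPM in shSETD2 cells and 156.5 and 141 CPM in shCtrl cells. The 3 lines kept the same order without overlap at all 4 times. Against shCtrl, IGFBP4 fell in shSETD2 cells at 0 h (log2 fold change -0.76, SE 0.0864, adjusted p = 2.04e-07) and at 6 h (-0.92, SE 0.0841, adjusted p = 6.25e-09).

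IGFBP6 (chromosome 12, 53491220 to 53496129, plus strand, GRCh37), which prefers IGF2 as its ligand, repeated that order at lower counts. At 0 h it had 8.52 and 7.09 CPM in shMETTL14 cells, 3.08 and 2.72 CPM in shSETD2 cells and 4.19 and 5.38 CPM in shCtrl cells. At 6 h it had 22.6 and 21.6 CPM in shMETTL14 cells, 6.13 and 4.76 CPM in shSETD2 cells and 11.4 and 9.28 CPM in shCtrl cells. No library of 1 line overlapped those of another at any time. It fell in shSETD2 cells at 0 h (-0.72, SE 0.163, adjusted p = 0.00105) and at 6 h (-0.92, SE 0.150, adjusted p = 2.72e-05). Over the 12 group means of log2 CPM, IGFBP4 and IGFBP6 had a Pearson correlation of 0.992, IGFBP3 and IGFBP4 of 0.899 and IGFBP1 and IGFBP4 of 0.760; the points share libraries, lines and times, so these are descriptions.

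**Figure D2:**
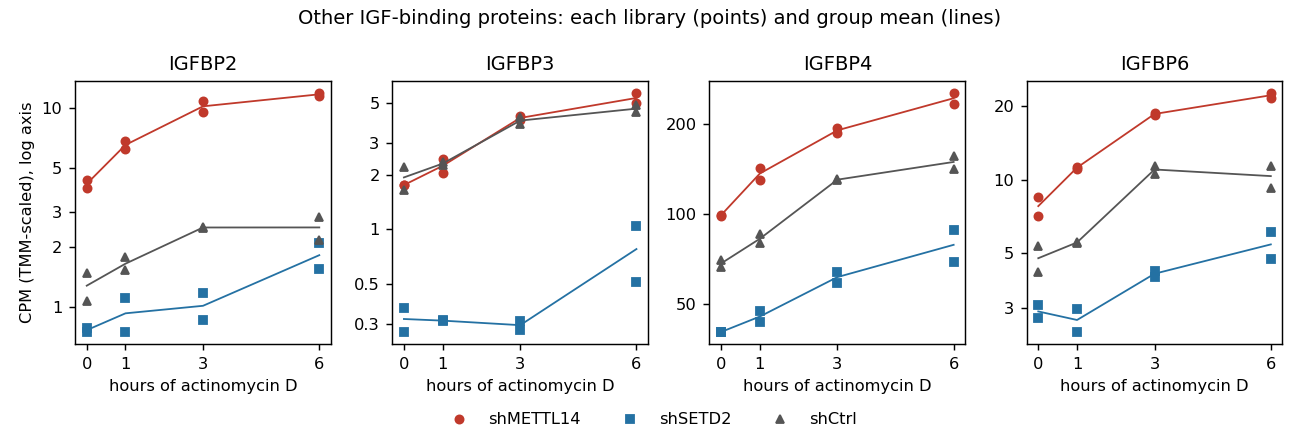
CPM (TMM-scaled, log axis) of IGFBP2, IGFBP3, IGFBP4 and IGFBP6 against hours of actinomycin D; points are libraries and lines join means of 2 libraries. IGFBP3 is at 0.297 CPM in shSETD2 cells at 3 h (6 and 7 counts), against 3.98 CPM in shCtrl cells. IGFBP4 and IGFBP6 are ordered shMETTL14, shCtrl, shSETD2 at every time.

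The upstream sequences of IGFBP3, IGFBP4 and IGFBP6 are shown because these binding proteins were called as lower in shSETD2 cells at both 0 h and 6 h. Each is the 250 bases before the RefSeq start on GRCh38.p14, read 5′ to 3′ on the gene's strand. Capitals mark matches on either strand. The motif searched as FOXO core was GTAAACA. For the insulin response element the core was CAAAACA. The TATA box was searched as TATAAA and the GC box as GGGCGG:
IGFBP3, chr7:45921273-45921522, minus strand: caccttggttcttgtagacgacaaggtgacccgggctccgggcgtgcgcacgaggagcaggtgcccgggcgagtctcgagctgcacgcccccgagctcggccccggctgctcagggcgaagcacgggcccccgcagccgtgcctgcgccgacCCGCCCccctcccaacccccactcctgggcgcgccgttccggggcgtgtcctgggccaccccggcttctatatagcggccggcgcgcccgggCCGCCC
IGFBP4, chr17:40443200-40443449, plus strand: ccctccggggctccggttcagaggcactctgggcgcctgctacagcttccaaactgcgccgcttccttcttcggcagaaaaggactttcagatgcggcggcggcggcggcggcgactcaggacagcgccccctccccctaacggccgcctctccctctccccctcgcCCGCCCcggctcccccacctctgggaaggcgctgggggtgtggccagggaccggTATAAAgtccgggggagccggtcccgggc
IGFBP6, chr12:53097417-53097666, plus strand: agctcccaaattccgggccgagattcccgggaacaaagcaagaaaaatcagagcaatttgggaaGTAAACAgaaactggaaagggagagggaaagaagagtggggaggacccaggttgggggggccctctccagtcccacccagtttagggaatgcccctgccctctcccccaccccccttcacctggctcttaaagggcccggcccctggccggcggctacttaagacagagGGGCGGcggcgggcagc
IGFBP6 has a FOXO core 186 bases before the start, a motif found in 2.98% of 35116 promoters of that length. IGFBP4 has a TATA box 29 bases before the start, as do 10.7% of promoters. All 3 hold at least 1 GC box, as do 42.6%; no marked motif overlaps another. A promoter entry was matched for 9 of 10 members, and the insulin response element core, in 4.30% of promoters, was found in IRS2. IGFBP1 was not matched. A match says nothing about binding, and no match says only that these letters are not in the window.

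Per length, the summed deposited RPKM of IGFBP1 to IGFBP7 at 0 h was 205 to 207 in shMETTL14 cells, 57.1 to 57.2 in shSETD2 cells and 75.3 to 75.9 in shCtrl cells. IGFBP1 made up 66.9% to 68.1% of that sum in shMETTL14 cells, 61.7% to 61.9% in shSETD2 cells and 45.2% to 46.0% in shCtrl cells. IGFBP4 supplied 25.6% to 26.1% in shMETTL14 cells, 32.55% to 32.9% in shSETD2 cells and 45.7% to 47.7% in shCtrl cells. IGFBP1 was thus the leading family transcript in both knockdown lines, while IGFBP1 and IGFBP4 were about level in shCtrl cells. At 6 h the share of IGFBP1 was 53.3% to 57.2% in shMETTL14 cells, 41.4% to 46.7% in shSETD2 cells and 32.9% to 35.2% in shCtrl cells, while IGFBP4 reached 33.4% to 36.9%, 45.4% to 50.4% and 55.7% to 57.4% in the same order of lines. IGFBP5 was close to 0 in every line, at most 0.0645 RPKM as a group mean. IGFBP7, an IGF-binding protein-related protein, had 7.89 and 8.18 CPM in shMETTL14 cells, against 1.30 and 1.03 CPM in shCtrl cells at 0 h (log2 fold change 2.785, SE 0.171, adjusted p = 8.17e-12); it was 1.02 ± 0.0436 CPM in shSETD2 cells and 1.17 ± 0.191 CPM in shCtrl cells (SD, n = 2 libraries each).

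The receptors were less variable. INSR (chromosome 19, 7112266 to 7294045, minus strand, GRCh37), the insulin receptor, had 131 CPM in each shMETTL14 library, 116 and 110 CPM in the shSETD2 libraries and 88.0 and 83.7 CPM in the shCtrl libraries at 0 h. The shMETTL14 mean was 1.53-fold that of shCtrl at 0 h and 1.42-fold at 6 h, without overlap. In shSETD2 cells INSR rose at 0 h (log2 fold change 0.40, SE 0.0573, adjusted p = 6.94e-06). After 6 h of drug INSR had 63.3 and 58.1 CPM in shSETD2 cells, against 62.0 and 54.1 CPM in shCtrl cells, with overlapping libraries (0.06, SE 0.0631, adjusted p = 0.457).

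IGF1R (chromosome 15, 99192200 to 99507759, plus strand, GRCh37), the receptor for IGF1 and IGF2, had 251 and 260 CPM in shMETTL14 cells, 167 and 163 CPM in shSETD2 cells and 172 and 166 CPM in shCtrl cells at 0 h. The shMETTL14 libraries stood above, at 1.51-fold the shCtrl mean, while those of shSETD2 and shCtrl overlapped (log2 fold change -0.03, SE 0.0476, adjusted p = 0.630; called at -0.19 with library size alone or limma on RPKM). At 6 h the values were 220 CPM in each shMETTL14 library, 148 and 141 CPM in shSETD2 cells and 170 and 171 CPM in shCtrl cells. IGF1R was then lower in shSETD2 than in shCtrl cells (-0.24, SE 0.0490, adjusted p = 0.000439). A pair of antisense genes overlaps IGF1R; the larger had 5 counts in all libraries together. Per length, IGF1R exceeded INSR at 0 h, at 22.5 against 14.97 RPKM in shMETTL14 cells, 12.6 against 11.1 RPKM in shSETD2 cells and 14.3 against 9.42 RPKM in shCtrl cells.

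Of the adaptors that receptors phosphorylate, IRS1 (chromosome 2, 227596033 to 227664475, minus strand, GRCh37) was higher in shMETTL14 than in shCtrl cells without overlap at every time, by 1.10-fold at 0 h, 1.19-fold at 1 h, 1.42-fold at 3 h and 1.35-fold at 6 h. At 0 h it had 53.25 and 54.2 CPM in shMETTL14 cells, 52.6 and 52.3 CPM in shSETD2 cells and 48.4 and 49.0 CPM in shCtrl cells. In shSETD2 cells it was not called at 0 h (log2 fold change 0.11, SE 0.0696, adjusted p = 0.232) or at 6 h (0.23, SE 0.111, adjusted p = 0.102); the 0 h value turned to -0.05 with scaling by library size alone. IRS2 (chromosome 13, 110406184 to 110438915, minus strand, GRCh37), an adaptor of the insulin receptor in liver, was at the limit of detection. It had 10 and 3 counts in shMETTL14 cells, 7 and 5 counts in shSETD2 cells and 5 and 5 counts in shCtrl cells at 0 h, or 0.0355, 0.0326 and 0.0303 RPKM as means, against 5.42 to 6.43 RPKM for IRS1. IRS2 did not pass the filter on low counts and was the only member not tested.

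FOXO1 (chromosome 13, 41129804 to 41240734, minus strand, GRCh37), which activates IGFBP1 and gluconeogenic genes when insulin is low, was lower in shSETD2 cells. At 0 h it had 38.7 and 38.9 CPM in shMETTL14 cells, 30.9 and 27.85 CPM in shSETD2 cells and 43.4 and 40.7 CPM in shCtrl cells. The shMETTL14 mean was 0.922 of the shCtrl mean at 0 h and 0.776 at 6 h. FOXO1 fell in shSETD2 cells at 0 h (log2 fold change -0.51, SE 0.0835, adjusted p = 3.00e-05) and at 6 h (-0.93, SE 0.173, adjusted p = 0.000139). The libraries did not overlap at any time, and the calls held in every fit without 1 library. Across the 12 group means FOXO1 had a Pearson correlation of -0.105 with IGFBP1, a description over groups that share libraries.

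Counted together for shSETD2 against shCtrl at 0 h, 2 of the 9 tested members rose (IGFBP1 and INSR), against 21.6% of all genes, and 5 fell (IGFBP2, IGFBP3, IGFBP4, IGFBP6 and FOXO1), against 18.9%. Their median log2 fold change was -0.51, against 0.02 over all genes. Scaling by library size alone moved that all-gene median to -0.14 and the split of all called genes to 2009 higher and 5103 lower, against 3221 higher and 2820 lower with TMM; the rise of INSR and the 5 falls were called with either scaling, and the rise of IGFBP1 was not. At 6 h 0 of 9 members rose, against 17% of all genes, and 6 fell (IGFBP1, IGFBP3, IGFBP4, IGFBP6, IGF1R and FOXO1), against 23.9%. The median was -0.47, against -0.07 over all genes. Scaling by library size alone gave 1975 genes higher and 4812 lower in all, against 2528 and 3557 with TMM.

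**Figure D3:**
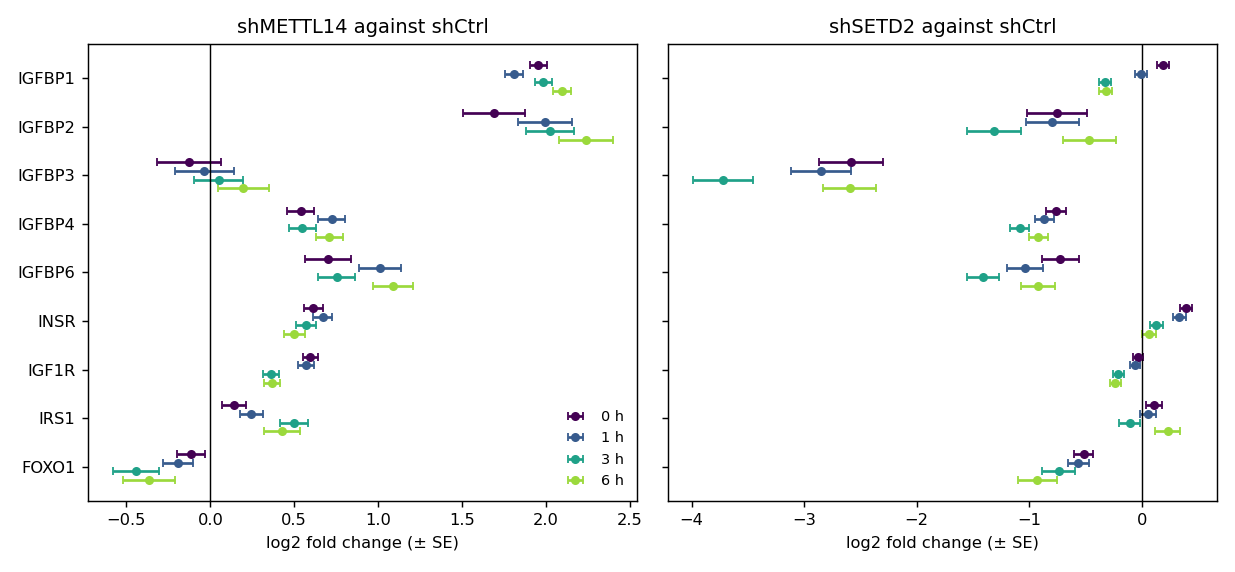
Log2 fold change against shCtrl (± SE) of the 9 tested members at 0, 1, 3 and 6 h, for shMETTL14 (left) and shSETD2 (right; the horizontal scales differ). IGFBP1 lies between 1.81 and 2.095 in shMETTL14 cells, and IGFBP3 between -3.72 and -2.58 in shSETD2 cells; the comparisons share the shCtrl libraries.

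Once transcription was stopped, IGFBP2, IGFBP3, IGFBP4 and IGFBP6 rose and FOXO1 and IRS1 fell relative to the rest of the RNA in all 3 lines, and IGFBP1 rose in shMETTL14 and shCtrl cells. Of 9 tested members, 5 rose relative to the rest of the RNA in shMETTL14 cells (38.2% of all genes) and 4 fell (34.8%). In shSETD2 cells 4 rose (34.2%) and 4 fell (36.2%), and in shCtrl cells 5 rose (37.8%) and 3 fell (33.2%). With scaling by library size alone the all-gene split became 3055 higher and 7431 lower in shMETTL14 cells, against 5693 and 5182 with TMM. It was 3247 higher and 6943 lower in shSETD2 cells, against 5098 and 5386 with TMM, and 3360 higher and 6788 lower in shCtrl cells, against 5632 and 4947 with TMM. The slopes of IGFBP1, IGFBP2, IGFBP3, IGFBP4, IGFBP6, INSR, IRS1 and FOXO1 kept their sign between these scalings in all lines, and that of IGF1R in shCtrl cells, not called with TMM, became a called fall (-0.0528).

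IGFBP2, IGFBP3, IGFBP4 and IGFBP6 rose in all 3 lines, with larger slopes than IGFBP1; differences between members were not tested. The slope of IGFBP4 was 0.21 log2 per h in shMETTL14 cells (SE 0.0121), 0.16 in shSETD2 cells (SE 0.0134) and 0.19 in shCtrl cells (SE 0.0125). IGFBP6 had slopes of 0.24, 0.17 and 0.20, IGFBP2 of 0.23, 0.19 and 0.16, and IGFBP3 of 0.27, 0.21 and 0.22 in shMETTL14, shSETD2 and shCtrl cells. All of these slopes were called (highest adjusted p = 0.00447, IGFBP3 in shSETD2 cells). That last call rested on shSETD2 replicate 2 at 6 h, which held 16 counts: without it the slope was 0.11 (adjusted p = 0.296). On the TMM scale IGFBP4 stood at 246% of its 0 h mean after 6 h in shMETTL14 cells, 196% in shSETD2 cells and 219% in shCtrl cells. In deposited RPKM its means went from 53.25 to 96.6 in shMETTL14 cells. They went from 18.7 to 29.95 in shSETD2 cells and from 35.3 to 60.6 in shCtrl cells. The hepatocyte markers also rose, 10 of 10 in each line, with median slopes of 0.18 in shMETTL14 cells, 0.17 in shSETD2 cells and 0.17 in shCtrl cells.

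**Figure D4:**
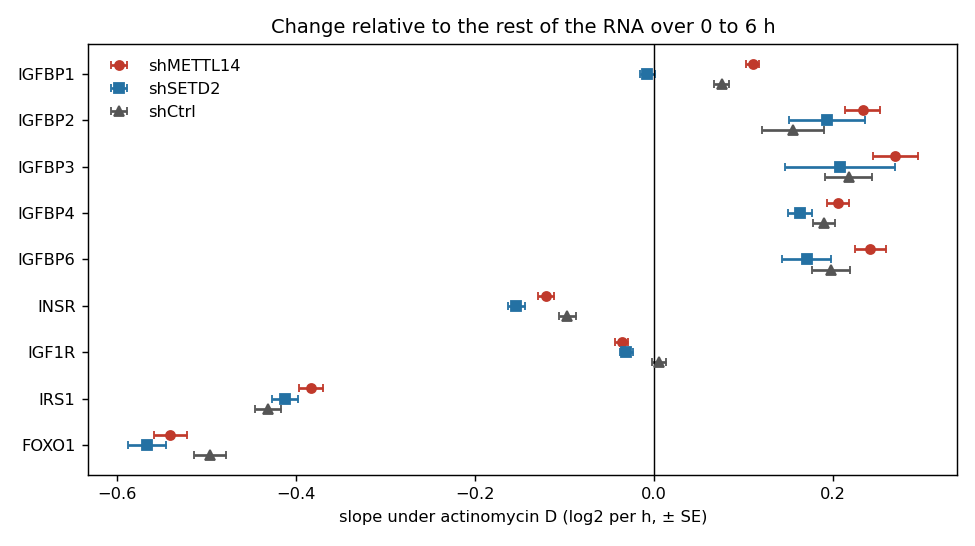
Slope under actinomycin D (log2 per h, ± SE) of the 9 tested members in the 3 lines, relative to the rest of the RNA. FOXO1 is the lowest, between -0.57 and -0.50, and IGFBP2, IGFBP3, IGFBP4 and IGFBP6 lie between 0.16 and 0.27 in every line.

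FOXO1 was the least stable member. After 1 h it stood at 51.7% of its 0 h mean in shMETTL14 cells, 52.8% in shSETD2 cells and 54.5% in shCtrl cells, and after 3 h at 11.02%, 11.8% and 13.8% in the same order of lines. Between 3 and 6 h it hardly moved, ending at 10.95% in shMETTL14 cells, 9.85% in shSETD2 cells and 13.02% in shCtrl cells. Its slopes were -0.54 (SE 0.0187) in shMETTL14 cells, -0.57 (SE 0.0213) in shSETD2 cells and -0.50 (SE 0.0178) in shCtrl cells. IRS1 followed, at 37.4%, 25.1% and 29.1% after 3 h and 21.2%, 19.03% and 17.4% after 6 h in shMETTL14, shSETD2 and shCtrl cells. Its slopes were -0.38 in shMETTL14 cells, -0.41 in shSETD2 cells and -0.43 in shCtrl cells (SE 0.0135 to 0.0143). INSR was lost more slowly, ending after 6 h at 62.6% of its 0 h mean in shMETTL14 cells, 53.8% in shSETD2 cells and 67.6% in shCtrl cells. On the TMM scale IGF1R changed little, ending at 86.1% in shMETTL14 cells, 87.6% in shSETD2 cells and 101% in shCtrl cells. In deposited RPKM IGF1R fell from 22.5 to 14.3 in shMETTL14 cells, 12.6 to 9.01 in shSETD2 cells and 14.3 to 11.35 in shCtrl cells. Its slopes were -0.0358 in shMETTL14 cells (SE 0.00734, adjusted p = 0.000140), -0.0303 in shSETD2 cells (SE 0.00754, adjusted p = 0.00106) and 0.00609 in shCtrl cells (SE 0.00742, adjusted p = 0.478). Over the 8 other settings they ran from -0.107 to -0.0258 in shMETTL14 cells and from -0.0794 to -0.0133 in shSETD2 cells. The shSETD2 call was lost with RLE factors or DESeq2 (-0.0133) and without any 1 of the 0 h libraries of shCtrl or shMETTL14 (lowest size -0.0164, highest adjusted p = 0.0696).

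**Figure D5:**
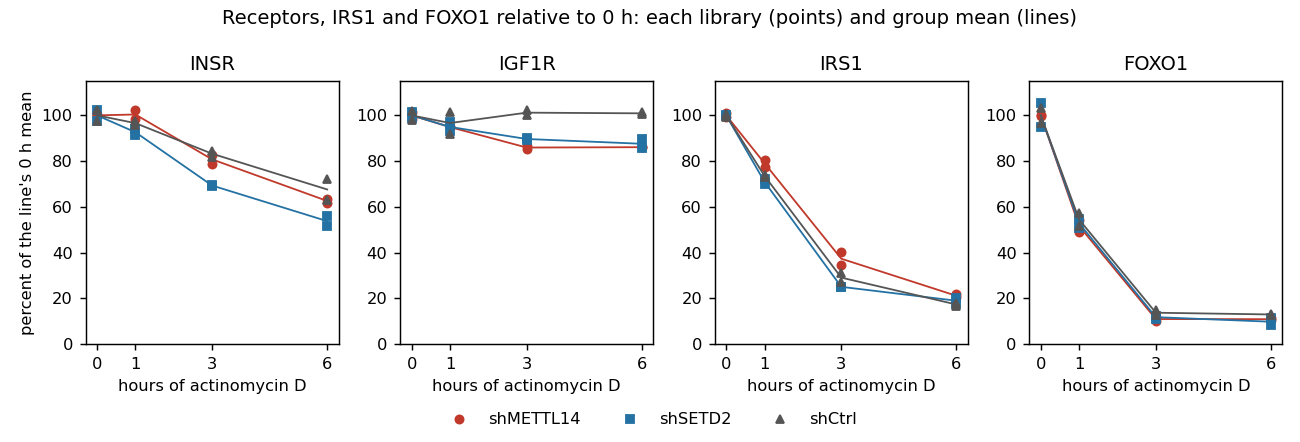
INSR, IGF1R, IRS1 and FOXO1 in TMM-scaled CPM as percent of each line's own 0 h mean (linear axis from 0) against hours of actinomycin D. Points are libraries and lines join means of 2 libraries. The FOXO1 means are 11.02% to 13.8% after 3 h in all lines, while the IGF1R means are 85.9% or more at every time.

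Differences in slope between lines were few. For shMETTL14 minus shCtrl, 0 of 9 members had a higher slope (1.85% of all genes) and 1, IGF1R, a lower one (3.35%), at -0.0419 log2 per h (SE 0.0104, adjusted p = 0.0187). That comparison is built from the shMETTL14 and shCtrl levels at all 4 times. Such levels took part in choosing the members, so its p-values are not free of that choice. IGF1R was not called over 1, 3 and 6 h alone (-0.0370) or with RLE factors (-0.0359), where IGFBP1 was called as higher (0.0554 and 0.0403). Nor was IGF1R called without either 0 h library of shMETTL14 or shCtrl, either 6 h library of shCtrl or shMETTL14 replicate 1 at 6 h (-0.0474 to -0.0156 over all 24). With RLE factors 360 genes had a higher and 380 a lower slope, and with library size alone 175 and 1047, against 276 and 499 with TMM. For shSETD2 minus shCtrl, 0 of 9 members were higher (1.49%) and 3 lower (6.45%): IGFBP1, INSR (-0.0573, SE 0.0133, adjusted p = 0.00968) and IGF1R (-0.0364, SE 0.0106, adjusted p = 0.0362). With RLE factors 463 genes were higher and 294 lower, and with library size alone 273 and 487, against 222 and 960 with TMM. IGFBP1 was called under all 8 other settings. INSR was lost under 4 of them (RLE factors -0.0377, DESeq2 -0.0378, 1, 3 and 6 h alone -0.0518, limma -0.0464). IGF1R was lost under 7 of them, with values of -0.0359 to -0.0168. The INSR call was also lost without either 0 h library of shCtrl or shMETTL14 or without shCtrl replicate 1 at 6 h (-0.0727 to -0.0210 over all 24, highest adjusted p = 0.411). The IGF1R call was lost without 14 libraries: both at 0 h of each line, both of shCtrl at 6 h, both of shSETD2 and of shMETTL14 at 3 h, and replicate 1 of shCtrl and of shSETD2 at 1 h (-0.0418 to -0.0014 over all 24). Both comparisons share the shCtrl libraries. FOXO1 and IRS1 were not called in either.

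Half-lives in the authors' deposited table were listed for 4 of the 10 members, IRS1, INSR, IGF1R and FOXO1; the column whose heading names SETD2 is taken as the shSETD2 line. In the authors' deposited table FOXO1 had 1.499 h in shMETTL14 cells, 1.43 h in shSETD2 cells and 1.77 h in shCtrl cells, and 3.11% of the 7772 listed genes were shorter in shCtrl. IRS1 had 1.945 h in shMETTL14 cells, 1.84 h in shSETD2 cells and 1.98 h in shCtrl cells in the authors' deposited table. INSR had 4.02 h in shMETTL14 cells, 3.55 h in shSETD2 cells and 5.79 h in shCtrl cells in the authors' deposited table. IGF1R had 6.05 h in shMETTL14 cells, 6.28 h in shSETD2 cells and 15.5 h in shCtrl cells in the authors' deposited table. The order of these genes, FOXO1 and IRS1 short, INSR longer and IGF1R longest, was the same in all lines. Of all genes in the authors' deposited table, 88.8% were shorter in shMETTL14 and 88.2% in shSETD2 than in shCtrl, and the median was 4.31 h in shMETTL14, 4.13 h in shSETD2 and 6.02 h in shCtrl. Against that shift, IGF1R exceeded 68.0% of listed genes in shMETTL14, 73.3% in shSETD2 and 81.4% in shCtrl in the authors' deposited table. The deposited values carry no error, so their differences were not tested.

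Around the members, 10 lists of the pathway held 140 genes, 125 of them tested; they were chosen with results of these data known. For shMETTL14 against shCtrl at 0 h, 35 were higher (23.1% of all genes) and 52 lower (25.1%); for shSETD2 against shCtrl 34 were higher (21.6%) and 38 lower (18.9%). Under actinomycin D 38 rose (38.2%) and 71 fell (34.8%) in shMETTL14 cells, 37 (34.2%) and 68 (36.2%) in shSETD2 cells, and 38 (37.8%) and 69 (33.2%) in shCtrl cells. The counts of single lists stand beside the same shares of all genes. The ligand IGF1 had at most 2 counts in any group, whereas IGF2 was among the more abundant transcripts. IGF2 had 1974 and 2029 CPM in shMETTL14 cells, 3241 and 3171 CPM in shSETD2 cells and 2059 and 2005 CPM in shCtrl cells at 0 h. It rose in shSETD2 cells (log2 fold change 0.66, SE 0.0394, adjusted p = 4.67e-12), and did not pass the test in shMETTL14 cells (-0.02, adjusted p = 0.671). IGF2R, the receptor that clears IGF2, was lower in shMETTL14 cells (-0.28) and in shSETD2 cells (-0.47), each called.

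Of 7 tested genes among other binding proteins, the acid-labile subunit and binding protein proteases, 3 were higher (23.1% of all genes) and 2 lower (25.1%) in shMETTL14 cells. In shSETD2 cells 1 was higher (21.6%) and 2 lower (18.9%). STC2, which inhibits the protease that cleaves IGFBP4, fell in shMETTL14 cells (-0.97) and in shSETD2 cells (-0.55). Of 20 adaptors and receptor-proximal regulators 6 were higher (23.1%) and 6 lower (25.1%) in shMETTL14 cells, and 4 (21.6%) and 6 (18.9%) in shSETD2 cells. GRB10, which restrains both receptors, fell in shSETD2 cells (-0.67). Of 19 genes of the PI3K-AKT module 8 were higher (23.1%) and 4 lower (25.1%) in shMETTL14 cells, and 4 (21.6%) and 5 (18.9%) in shSETD2 cells. TBC1D4, an AKT substrate in glucose transport, rose in both lines (0.51 and 0.42). Of 18 genes of the TSC-mTOR module 3 were higher (23.1%) and 10 lower (25.1%) in shMETTL14 cells, and 2 (21.6%) and 4 (18.9%) in shSETD2 cells. DDIT4, an inhibitor of mTORC1, fell to 19.5 and 18.2 CPM in shMETTL14 cells and 48.3 and 48.4 CPM in shSETD2 cells, against 70.4 and 70.0 CPM in shCtrl cells. SESN2 (-1.15 and -0.85) and EIF4EBP1 (-1.21 and -0.70) also fell in shMETTL14 and shSETD2 cells.

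Of 19 FOXO and insulin-repressed liver targets 9 were higher (23.1% of all genes) and 7 lower (25.1%) in shMETTL14 cells, and 9 (21.6%) and 5 (18.9%) in shSETD2 cells (median log2 fold change 0.18 and 0.20). G6PC, which releases glucose, had 7.71 and 8.43 CPM in shMETTL14 cells, 7.25 and 7.95 CPM in shSETD2 cells, and 0.158 and 0.207 CPM in shCtrl cells. PCK1, the entry enzyme of gluconeogenesis, had 4.90 and 5.01 CPM in shMETTL14 cells, 26.1 and 26.0 CPM in shSETD2 cells and 0.632 and 1.14 CPM in shCtrl cells. TXNIP, an inhibitor of glucose uptake, had 204 CPM in each shMETTL14 library, 75.3 and 74.8 CPM in shSETD2 cells and 7.51 and 6.86 CPM in shCtrl cells. All 3 were called in both lines. The shCtrl values of G6PC lay near the level of 3 counts in those libraries (0.1185 and 0.1034 CPM), so the size of its difference rests on few counts. Of 10 insulin-induced liver targets, 0 were higher (23.1% of all genes) and 7 lower (25.1%) in shMETTL14 cells, and 7 higher (21.6%) and 2 lower (18.9%) in shSETD2 cells. FASN, fatty acid synthase, fell in shMETTL14 cells (-0.64), as did the hexokinase HK2 (-1.18). HK2 was also lower in shSETD2 cells, at 162.7 and 164.3 CPM against 216.5 and 215.3 CPM in shCtrl cells at 0 h. At 6 h HK2 was called as lower there (-0.89). SCD (1.30) and ELOVL6 (1.69), which desaturate and elongate fatty acids, rose in shSETD2 cells at 0 h.

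Of 17 transcription factors known to act on the IGFBP1 promoter, 2 were higher (23.1% of all genes) and 8 lower (25.1%) in shMETTL14 cells. In shSETD2 cells 3 were higher (21.6%) and 8 lower (18.9%). CEBPB fell in both (-1.21 and -1.001), ATF4 in shMETTL14 cells (-0.83) and the glucocorticoid receptor gene NR3C1 in shSETD2 cells (-0.82). Of 10 FOXO factors other than FOXO1 and regulators of FOXO proteins, 3 were higher (23.1%) and 5 lower (25.1%) in shMETTL14 cells. In shSETD2 cells 2 were higher (21.6%) and 4 lower (18.9%). FOXO3 had 29.1 ± 1.60 CPM in shMETTL14 cells, 40.9 ± 2.69 CPM in shSETD2 cells and 42.5 ± 1.17 CPM in shCtrl cells (SD, n = 2 libraries each); it fell in shMETTL14 cells (-0.55). SKP2, a ubiquitin ligase subunit that targets FOXO1, rose in shMETTL14 cells (0.59) and in shSETD2 cells (1.62). Among the 3 IGF2 mRNA-binding proteins, which read m6A, IGF2BP3 rose in shMETTL14 (0.51) and shSETD2 cells (0.64), and IGF2BP1 fell in both (-0.29 and -0.43). IGF2BP2 fell in shMETTL14 cells (-0.31) and was not called in shSETD2 cells.

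Among 10815 tested genes with at least 5 CPM in a group, the 5 whose course over the 12 group means was most like that of IGFBP1 were TGFA (Pearson correlation 0.989), RAB3B (0.988), LIPH (0.986), TRAK1 (0.985) and DST (0.984). These are descriptions over groups that share libraries. RAB3B had means of 159 CPM in shMETTL14 cells, 52.5 CPM in shSETD2 cells and 42.7 CPM in shCtrl cells at 0 h, and 253, 64.4 and 59.2 CPM at 6 h in that order. LIPH had 25.4 CPM in shMETTL14 cells, 1.56 CPM in shSETD2 cells and 0.905 CPM in shCtrl cells at 0 h. Among the members, IGFBP2 (0.937) and IGF1R (0.911) were the closest to IGFBP1, and IRS1 (-0.00419) was the nearest to 0.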

How the data were processed

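Gene-level counts and RPKM values of 24 libraries were used as the authors deposited them in one table; the submitters' processing notes list GRCh37 as build and HTSeq 0.6.1p1, TopHat and cutadapt among the tools. Their order, their settings, the annotation and the use of strand are not given here. Tested on the values, the deposited RPKM equals the count per exon length and library count total. A further deposited table gives half-lives in hours, which the series' design text bases on the levels after 1, 3 and 6 h against those at 0 h.

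Groups come from the sample titles. Of 34618 genes, 9318 had no count and 14887 passed filterByExpr over 12 groups. Counts were fitted with edgeR 4.0.16 in R 4.3.3 (TMM, robust quasi-likelihood F test, two-sided, Benjamini-Hochberg at 0.05; 12 residual degrees of freedom, biological coefficient of variation 5.04%), after the script was tested on simulated data. Library totals (18.3 to 31.4 M) put 3 counts at 0.0936 to 0.196 TMM-scaled CPM. Alternatives were RLE factors, library size alone, no filter or at least 1 CPM in every library, DESeq2 1.42.0, limma 3.58.1 on log2(RPKM + 0.1), a replicate block, slopes over 1, 3 and 6 h, and leaving out each library. Replicate pairs differed beyond sampling noise. The members, gene lists and tests were chosen with earlier results of these data known. Beyond the members, the text names IGF1, IGF2, FOXO3, SETD2, METTL14, per list and comparison up to 3 called genes with the largest change among those reaching 5 CPM in a group, and the 5 genes most correlated with IGFBP1; IGFBP5 and the cell type markers named for being at 0 were chosen after their values were seen. Promoters are RefSeq windows on GRCh38.p14, and GGACT counts are from GENCODE transcripts on GRCh38; no coordinates were converted.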

Additional observations from a re-analysis of the deposited data

Results flagged for a closer look

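Slopes under actinomycin D differed between lines, by the test of the difference itself, for 3 members. IGFBP1 had a slope lower by -0.0835 log2 per h in shSETD2 than in shCtrl cells. INSR differed by -0.0573 for shSETD2 minus shCtrl. IGF1R differed by -0.0364 for shSETD2 minus shCtrl and by -0.0419 for shMETTL14 minus shCtrl. The shMETTL14 comparison is built from levels that took part in choosing the members, so its test is not free of that choice. The IGFBP1 difference was called without any 1 of the 24 libraries, the INSR difference was lost without 5 of them, and the IGF1R differences without 14 (shSETD2) and 7 (shMETTL14) of them. Of 8 other settings, the IGFBP1 difference was lost under 0, the INSR difference under 4, and the IGF1R differences under 7 (shSETD2) and 2 (shMETTL14).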

How the results depend on the processing

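The number of called members for shSETD2 against shCtrl at 0 h and 6 h and for the slopes within lines stayed within 1.5 times the values given. For the slope difference of shMETTL14 minus shCtrl, 1 member was called, IGF1R, and 2 with the stricter filter, the replicate block (0.0341 for the added IGFBP1) and DESeq2; with RLE factors the 1 called was IGFBP1; leaving out 1 library gave 0 to 2. For shSETD2 minus shCtrl 3 were called, and 1 with RLE factors, slopes over 1, 3 and 6 h, DESeq2 and limma on log2(RPKM + 0.1); leaving out 1 library gave 1 to 4. The log2 difference of IGFBP1 between shMETTL14 and shCtrl at 0 h was 1.96, and 1.90 with RLE factors or DESeq2, 2.01 with library size alone or limma, 2.00 with the stricter filter and 1.84 to 1.95 without 1 library.

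Signs turned for small values that were not called in the values given: IRS1 in shSETD2 at 0 h (-0.0488 with library size alone, -0.0478 with limma), INSR in shSETD2 at 6 h (-0.0326 and -0.0299, and -0.0304 to 0.167 without 1 library), the IGFBP1 slope in shSETD2 (0.0099 with RLE factors, 0.0109 over 1, 3 and 6 h, 0.0100 with DESeq2, -0.0103 to 0.0068 without 1 library) and the IGF1R slope in shCtrl (-0.0528 with library size alone, -0.0006 without a filter, -0.0047 with the stricter filter, -0.0523 with limma, -0.0151 to 0.0110 without 1 library). The IGF1R values with library size alone and with limma were called falls. The cause was not tested. Dropping a 0 h library of shCtrl or shMETTL14 also moved values of shSETD2. All libraries share 1 scaling and 1 model. Each fit without 1 library redid the filter, the scaling and the model, and the reason for this shift was not tested.

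Replicate numbers paired the samples weakly at most. Over 66 pairs of groups the correlation of deviations of same-numbered libraries ran from -0.0842 to 0.202 and passed 0.1 in 9. With the replicate as a block, the genes called for shSETD2 minus shCtrl slopes were 335 higher and 1680 lower, against 222 and 960. Called slope differences over all genes also moved with limma on log2(RPKM + 0.1), to 293 higher and 433 lower for shSETD2 and 187 and 1007 for shMETTL14, against 276 and 499 for shMETTL14 in the values given, with RLE factors to 463 and 294 for shSETD2, and with library size alone to 273 and 487 for shSETD2 and 175 and 1047 for shMETTL14. Counts limit IRS2, IGFBP2 and IGFBP3, which had as few as 0, 18 and 6 counts in a library.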
